A study of Homo sapiens with 18 samples.

Results

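Small nucleolar RNA (snoRNA) host genes and a set of well-known long noncoding RNAs were followed through 18 RNA sequencing libraries of U2OS, an established human osteosarcoma line. The members were every gene of the authors' count table whose symbol is SNHG followed by a number, which gave 24 genes, and 11 named genes, GAS5, ZFAS1, DANCR, NEAT1, MALAT1, TUG1, PVT1, MIR22HG, MIR17HG, CRNDE and EPB41L4A-AS1. These 35 members were taken from 25296 genes in the table, and 32 of them had enough counts to be tested. SNHG22, SNHG27 and SNHG28 held at most 8, 3 and 4 counts in any library and were not tested.

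The libraries came from 3 derived lines, with the MigR1 empty vector (EV), with overexpressed wild-type DNMT3A (WT) or with overexpressed mutant DNMT3A (MUT). The enzyme DNMT3A methylates cytosines in DNA. Its mutation is R882C in the series text but R882H in the sample labels, and only the word mutant is used here. Cells of every line were taken without treatment and 24 h into 10 µM cytarabine (Ara-C), which enters DNA in place of deoxycytidine and stalls replication. The series text describes the untreated cells as vehicle controls. There were 3 biological replicates in each of the 6 groups. All groups, the controls included, are U2OS cells that still carry their own DNMT3A gene. The promoter that drives the introduced DNMT3A, and whether a line was 1 clone or a pool, are not given in the sources used here.

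A snoRNA host gene makes a transcript whose introns contain snoRNAs. The introns are cut out and trimmed to snoRNAs, which guide chemical modification or cleavage of ribosomal RNA, while the spliced exons are left as a noncoding RNA that ribosomes often engage and that nonsense-mediated decay then degrades. Box C/D snoRNAs guide 2′-O-methylation and box H/ACA snoRNAs guide pseudouridylation, and the related scaRNAs act on spliceosomal RNAs in Cajal bodies. The level of the spliced host RNA is therefore not a measure of the snoRNA. MALAT1 and NEAT1 work differently, as nuclear RNAs of nuclear speckles and paraspeckles.

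By position in the RefSeq gene table, 27 of the 35 members held at least 1 snoRNA or scaRNA gene, 144 such genes in all. SNHG14 held 83 of them, in the imprinted region of chromosome 15 that is expressed from the paternal copy. GAS5 held 11, SNHG1 held 9, SNHG17 held 5 and SNHG12 held 4. CRNDE, MALAT1, MIR17HG, MIR22HG, NEAT1, PVT1, SNHG27 and TUG1 held none. MIR17HG instead held 6 microRNA genes, those of the miR-17-92 cluster, and MIR22HG held the gene of miR-22.

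Many host genes of this kind begin transcription at a C followed by a run of pyrimidines, the terminal oligopyrimidine start also known from ribosomal protein genes. RefSeq promoter windows on GRCh38.p14 were at hand for 29 members. The letters searched were a C at the RefSeq start followed by at least 4 bases that are C or T, read on the gene's strand only. Of the 29 members 6 had it (20.7%), against 5.14% of 27305 genes with a window, and 14 of 25 protein-coding snoRNA hosts with a window had it (56%). The 6 are shown because 5 of them were lower after cytarabine in at least 2 lines and SNHG18 was the member that rose most. Of 16 members with a window that were lower in all 3 lines, 4 had the run (25%). Of the 13 other members with a window 2 had it (15.4%). A link between the run and the response was not tested. GAS5 and DANCR follow as members without the run at this position. DANCR has such a run if the start may slide by up to 5 bases, and GAS5 does not. The whole GAS5 stretch lies upstream of the GAS5 gene of the authors' table, which ends at 173868883 (minus strand). The RefSeq starts of SNHG12 and ZFAS1 lie inside their genes of that table. Those genes begin at 28583133 (SNHG12, minus strand) and 49278178 (ZFAS1, plus strand). A run at the start used in that table was not searched. Each stretch holds 20 bases before the start and 30 from it, and the capitals mark the start base and any pyrimidine run that begins there.
SNHG4, chr5:139274081-139274130, plus strand: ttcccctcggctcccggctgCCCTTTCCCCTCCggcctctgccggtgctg
SNHG12, chr1:28581844-28581893, minus strand: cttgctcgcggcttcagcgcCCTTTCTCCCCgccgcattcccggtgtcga
SNHG5, chr6:85678704-85678753, minus strand: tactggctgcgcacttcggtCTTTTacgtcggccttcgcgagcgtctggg
ZFAS1, chr20:49278622-49278671, plus strand: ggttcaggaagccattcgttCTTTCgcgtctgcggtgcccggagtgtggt
SNHG19, chr16:2155329-2155378, minus strand: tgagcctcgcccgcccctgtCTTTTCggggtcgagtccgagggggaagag
SNHG18, chr5:9546180-9546229, plus strand: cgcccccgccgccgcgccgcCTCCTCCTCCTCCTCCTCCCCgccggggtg
GAS5, chr1:173869016-173869065, minus strand: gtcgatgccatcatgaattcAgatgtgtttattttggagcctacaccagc
DANCR, chr4:52712374-52712423, plus strand: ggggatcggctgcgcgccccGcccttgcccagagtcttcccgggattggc

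SNHG4 and SNHG12 start with a long mixed run of C and T, while SNHG5, ZFAS1 and SNHG19 start with a short run of C and then T. The run of SNHG18 is a CTC repeat. With the start allowed to slide by up to 5 bases, 13 of the 29 members had such a run (44.8%), against 25.2% of all genes. The E-box CACGTG, read on both strands as it is its own reverse complement, lay within the 300-base windows of 2 members, SNHG7 and TUG1 (6.9%), against 8.77% of all genes. A match describes letters, and a window without one says nothing about any factor.

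Library totals ran from 15.4 to 21.9 M counts. DNMT3A, the check of the labels, was 26.9 ± 0.662 CPM (SD, n = 3) in untreated EV, 133 ± 5.17 CPM in untreated WT and 456 ± 185 CPM in untreated MUT. The untreated MUT libraries gave 499.7, 615 and 254 CPM of DNMT3A in replicates 1, 2 and 3, so replicate 3 was low in it, while treated MUT libraries gave 532, 515 and 525 CPM. CPM are read counts brought to a fixed library size with TMM factors. The osteoblast marker RUNX2 was detected at 45.8 ± 2.66 CPM and SPARC at 888 ± 17.7 CPM in untreated EV, whereas SP7 and IBSP were not in the table, and the leukocyte marker PTPRC was at 1.06 ± 0.426 CPM. The epithelial keratin KRT18 was at 457 ± 12.8 CPM. The other listed osteoblast genes ran lower. Over all 18 libraries COL1A1 averaged 164, ALPL 9.9, COL1A2 2.49, SPP1 0.733 and BGLAP 0.159 CPM. Of the other listed epithelial genes KRT8 averaged 274, EPCAM 3.07 and CDH1 2.03 CPM.

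Library 2 of untreated MUT and library 2 of treated EV stood apart from the others of their groups in the host RNAs. Over the 25 tested noncoding hosts, the median log2 level relative to untreated EV was -0.33 in replicate 2 of untreated MUT, against 0.46 and 0.49 in replicates 1 and 3. Over 29 protein-coding snoRNA hosts the same 3 medians were 0.28, 0.17 and 0.36. In treated EV the noncoding host median was -1.04 in replicate 2, against -0.44 and -0.66, and the coding host median was -0.37, against -0.53 and -0.47. Replicate 2 of untreated MUT was the lowest library of its group for 22 of the 25 noncoding hosts and for 36.8% of all tested genes. Replicate 2 of treated EV was the lowest for 23 of the 25 and for 34.9% of all tested genes. Results that rest on these libraries are therefore given with and without them, and what sets the libraries apart was not tested. Both were picked by the host values themselves, so fits without them move the hosts in a direction set in advance. Over all genes the untreated MUT group was the least uniform of the 6 groups. Their pairwise chi-square per degree of freedom was 23.2 for replicates 1 and 2, 27.7 for 1 and 3 and 51.4 for 2 and 3, against 2.51 to 16.5 within the other groups. Replicate 3, low in DNMT3A, was thus also apart from replicate 2.

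**Figure D1:**
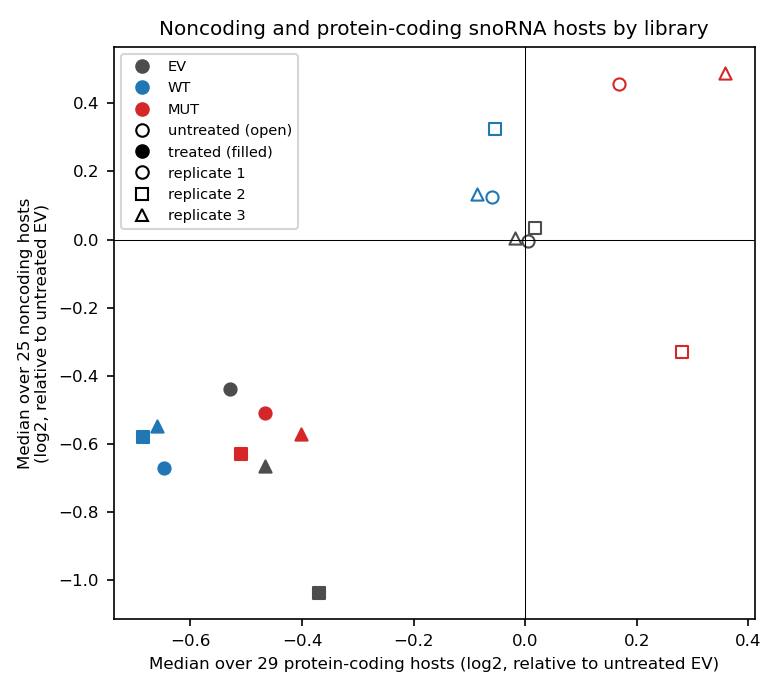
Median log2 level of 25 tested noncoding snoRNA hosts (vertical axis) against 29 protein-coding snoRNA hosts (horizontal axis) in each of the 18 libraries, both relative to the mean of untreated EV. The open red square, untreated MUT replicate 2, lies at -0.33 on the vertical axis while the other untreated MUT libraries lie at 0.46 and 0.49, and the filled grey square, treated EV replicate 2, is the lowest at -1.04.

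In untreated EV cells the most abundant member per exonic length was SNHG19, with a level of 86.1 ± 12.9 CPM per kb (SD, n = 3), followed by SNHG16 at 43.1 ± 1.79 and SNHG6 at 41.3 ± 1.72 CPM per kb. SNHG16 and SNHG6 did not differ beyond their spread. SNHG3 at 24.03 ± 0.508, DANCR at 22.8 ± 0.168, SNHG1 at 21.9 ± 0.883 and TUG1 at 20.05 ± 0.944 CPM per kb came next. MALAT1 stood at 9.73 ± 0.133, GAS5 at 6.52 ± 0.230, NEAT1 at 4.61 ± 0.268 and PVT1 at 1.00 ± 0.0403 CPM per kb. MIR17HG was the lowest tested member at 0.0480 ± 0.0223 CPM per kb. The order depends on the length used, because annotated noncoding genes pool the exons of many transcripts. Per median transcript length DANCR came first at 241 and SNHG6 next at 201, and SNHG19 was at 110.4 CPM per kb.

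The main comparison asked how the members responded to cytarabine in each line. Most host RNAs were lower after treatment, by up to a log2 fold change of -1.45, and 2 hosts were higher. In EV 20 of the 32 tested members passed the threshold, 2 higher and 18 lower. In WT 26 passed, 2 higher and 24 lower, and in MUT 26 passed, 3 higher and 23 lower. Among all 18226 tested genes 49.1% were called in EV, with 22.9% lower and 26.1% higher. In WT 49% of the tested genes were called, with 22.7% lower and 26.3% higher, and in MUT 56.3%, with 25.9% lower and 30.4% higher. A gene was called where its adjusted p was under 0.05 in edgeR's quasi-likelihood test with Benjamini-Hochberg adjustment over all tested genes. The members' median log2 fold change was -0.59 in the EV line and -0.71 in both others, where all tested genes had medians of 0.05 (EV), 0.03 (WT) and 0.05 (MUT). These RNAs were measured in bulk, so less RNA per cell and fewer cells that make it cannot be told apart.

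Called lower in all 3 lines were 18 members, DANCR, EPB41L4A-AS1, GAS5, PVT1, SNHG1, SNHG3, SNHG4, SNHG5, SNHG7, SNHG8, SNHG10, SNHG12, SNHG15, SNHG16, SNHG17, SNHG20, SNHG21 and ZFAS1. Among all tested genes 16.4% were called lower in all 3. For 11 of the 18 the call held in each line under every alternative run, and EPB41L4A-AS1, GAS5, PVT1, SNHG8, SNHG12, SNHG20 and SNHG21 lost it in some line under at least 1. SNHG14 and SNHG18 were called higher in all 3, against 18.9% of all tested genes. Of the 25 tested snoRNA hosts 17 were lower in all 3 lines and 2 were higher. Of the 7 tested members without a snoRNA gene, PVT1 was lower in all 3 and none was higher in all 3. Every treated library lay below every untreated library for 19 members in EV, 25 in WT and 15 in MUT. The shares of all tested genes for which this held were 28.1%, 31.9% and 24.5%. For 12 members every treated library lay below every untreated library of its line in all 3 lines, which held for 17.9% of all tested genes.

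**Figure D2:**
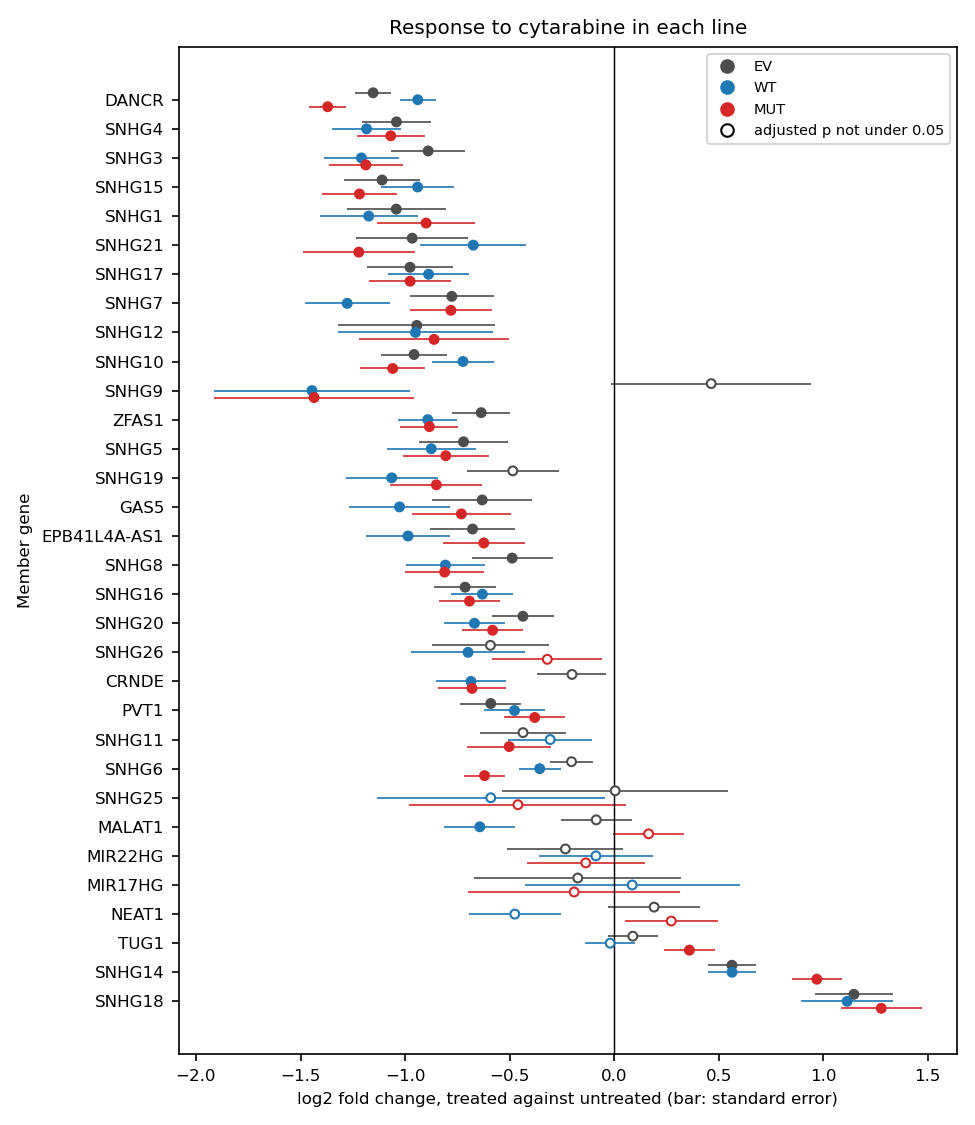
Log2 fold change of each tested member, treated against untreated, in EV (grey), WT (blue) and MUT (red), with the standard error as a bar and open points where the adjusted p was not under 0.05. Members are ordered by their mean change, from DANCR at the top to SNHG14 and SNHG18, the hosts that rose in every line, at the bottom.

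DANCR, host of SNORA26 on chromosome 4 and named for its effect on differentiation, had the largest mean fall. In EV it gave 232, 233 and 230.0 CPM untreated and 114, 90.02 and 109 CPM treated in replicates 1, 2 and 3. In WT the values were 253, 250.2 and 234 CPM untreated and 126, 130.2 and 128 CPM treated. In MUT they were 231, 233 and 283 CPM untreated and 91.7, 94.4 and 102 CPM treated. Treated and untreated libraries did not overlap in any line, and replicate 2 of untreated MUT was not low for this gene. Its log2 fold changes were -1.15 in EV, -0.94 in WT and -1.37 in MUT (SE 0.0868, 0.086 and 0.087), with edgeR adjusted p of 4.24e-09, 4.31e-08 and 3.01e-10.

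SNHG3 hosts SNORA73A and SNORA73B, the H/ACA RNAs also called U17, and shares its start region and strand with the protein-coding gene RCC1. In EV it gave 96.3, 97.97 and 100.4 CPM untreated and 60.4, 41.1 and 56.96 CPM treated. WT libraries gave 96.9, 120.1 and 108 CPM untreated and 46.02, 44.1 and 50.3 CPM treated. MUT libraries gave 139.6, 78.1 and 150.4 CPM untreated and 47.01, 53.1 and 61.6 CPM treated. The groups of a line did not overlap. On the log2 scale the changes were -0.89 in EV, -1.21 in WT and -1.19 in MUT (SE 0.178, 0.178 and 0.177), with edgeR adjusted p of 3.64e-04, 1.51e-05 and 1.26e-05. RCC1, which reads could be shared with, changed by -1.22 in EV, -1.16 in WT and -1.32 in MUT (edgeR adjusted p 2.01e-11, 2.06e-11 and 5.55e-12).

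SNHG4, host of SNORA74A and SNORA74D on chromosome 5, overlaps MATR3 on the same strand. Its values in EV were 32.4, 35.8 and 35.97 CPM untreated and 18.4, 14.1 and 17.8 CPM treated. The WT values were 31.2, 43.4 and 34.6 CPM untreated and 15.8, 16.3 and 16.00 CPM treated. The MUT values were 41.9, 25.03 and 41.8 CPM untreated and 14.8, 19.1 and 18.1 CPM treated. Its log2 fold changes (-1.04 in EV, -1.18 in WT and -1.07 in MUT, edgeR adjusted p 3.19e-05, 7.15e-06 and 1.58e-05) were larger in size than those of MATR3, -0.46 in EV, -0.47 in WT and -0.45 in MUT. The difference between the genes was not tested.

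SNHG15, host of SNORA9 on chromosome 7, overlaps no other gene of the table. It gave 29.5, 25.8 and 31.2 CPM untreated and 15.1, 10.6 and 14.2 CPM treated in EV. It gave 38.1, 39.05 and 32.2 and then 19.6, 19.2 and 18.2 CPM in WT, and 38.6, 21.6 and 42.5 and then 13.7, 16.3 and 14.3 CPM in MUT. No treated library reached an untreated one of its line. The fitted log2 changes were -1.11 in EV, -0.94 in WT and -1.22 in MUT (SE 0.182, 0.175 and 0.178), with edgeR adjusted p of 4.87e-05, 1.81e-04 and 1.01e-05.

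SNHG1, the U22 host gene with 8 box C/D snoRNAs named in its introns, was a case in which library 2 of untreated MUT mattered. In EV it gave 83.1, 89.1 and 89.2 CPM untreated and 48.6, 28.2 and 49.3 CPM treated. The WT values were 106, 115 and 89.3 CPM untreated and 43.8, 44.6 and 49.4 CPM treated. The MUT values were 98.8, 39.7 and 90.8 CPM untreated and 34.2, 42.5 and 46.6 CPM treated. Groups did not overlap in EV and WT, and in MUT they overlapped through the untreated replicate 2. The log2 fold changes were -1.04 in EV, -1.17 in WT and -0.90 in MUT (SE 0.236, 0.235 and 0.236), with edgeR adjusted p of 0.00115, 3.60e-04 and 0.00311. Without that library the change in MUT was -1.25 (SE 0.16, edgeR adjusted p 1.71e-06). Over all alternative runs the SNHG1 change in MUT ran from -1.25 to -0.67 and passed in each.

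GAS5, on chromosome 1 (173863900 to 173868883, minus strand in the authors' table), accumulates in growth-arrested cells and when translation is blocked, and hosts 10 box C/D snoRNAs and SNORA103. Untreated EV libraries gave 31.7, 31.3 and 33.4 CPM and treated ones 24.5, 15.6 and 21.8 CPM. Untreated WT libraries gave 33.9, 37.6 and 34.1 CPM and treated ones 16.3, 14.9 and 20.5 CPM. Untreated MUT libraries gave 44.1, 16.1 and 41.5 CPM and treated ones 18.98, 22.8 and 19.8 CPM. The groups overlapped in MUT and not in EV or WT, again through untreated replicate 2. GAS5 had log2 fold changes at -0.63 in EV, -1.03 in WT and -0.73 in MUT (SE 0.239, 0.24 and 0.237) and edgeR adjusted p of 0.0351, 0.00149 and 0.0133. Without untreated MUT replicate 2 its change in MUT was -1.10 (SE 0.138, edgeR adjusted p 1.25e-06), and without untreated MUT replicate 1 it was -0.50 (SE 0.251, edgeR adjusted p 0.106), no longer past the threshold. The GAS5 call in EV was lost for 5 of the 18 libraries left out in turn, with -0.47 (edgeR adjusted p 0.144) without treated EV replicate 2, and in DESeq2. It was also lost with upper-quartile scaling (-0.55, edgeR adjusted p 0.0714) and with a filter of a mean of at least 50 counts.

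**Figure D3:**
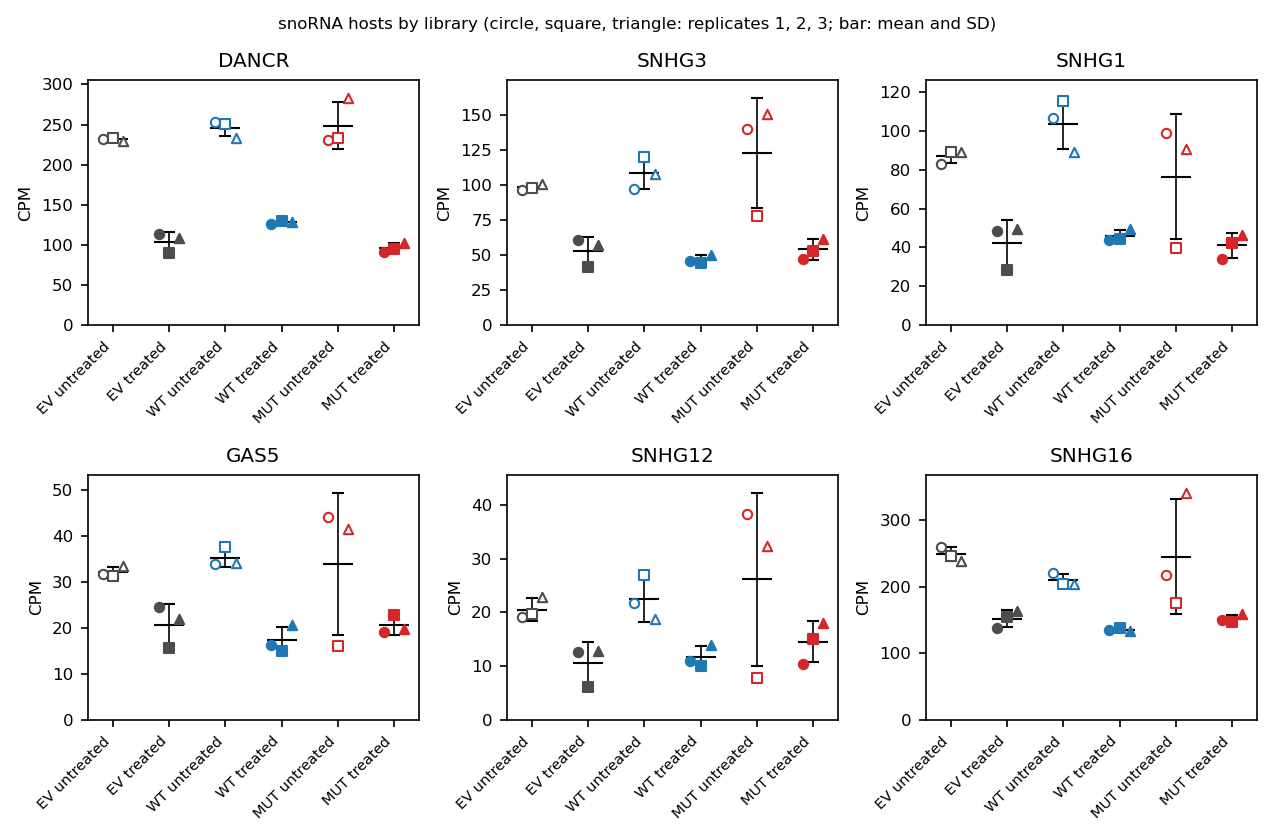
CPM of 6 snoRNA hosts in every library (open points untreated, filled points treated, grey EV, blue WT, red MUT), with the mean and SD of each group. DANCR separates treated from untreated libraries in every line, while in SNHG1, GAS5 and SNHG12 the open red square, untreated MUT replicate 2, lies among or below the treated libraries.

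SNHG12, host of 3 H/ACA snoRNAs and SNORD99, had the largest standard errors among the 18 members that were lower in all 3 lines. Untreated MUT libraries gave 38.3, 7.80 and 32.3 CPM and treated ones 10.5, 14.9 and 18.04 CPM. In EV it gave 19.04, 19.6 and 22.9 CPM untreated and 12.6, 6.06 and 12.9 CPM treated. Libraries of WT held 21.7, 27.04 and 18.7 CPM untreated and 10.99, 9.94 and 13.9 CPM treated. Groups overlapped in MUT and not in EV or WT. Its log2 fold changes at -0.94 in EV, -0.95 in WT and -0.86 in MUT (SE 0.375, 0.369 and 0.36) passed narrowly, with edgeR adjusted p of 0.0438, 0.0395 and 0.0488. In MUT the change was -1.32 (SE 0.226, edgeR adjusted p 4.86e-05) without untreated replicate 2, -0.48 (SE 0.384, edgeR adjusted p 0.309) without untreated replicate 1 and -0.72 (SE 0.384, edgeR adjusted p 0.12) without untreated replicate 3. Leaving out 1 library at a time ended the call of SNHG12 in EV for 10 of the 18 libraries, in WT for 4 and in MUT for 14. The EV change was -0.69 (edgeR adjusted p 0.168) without treated EV replicate 2, and DESeq2 called SNHG12 in no line. With upper-quartile scaling SNHG12 was also called in no line.

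SNHG21, host of the scaRNA SCARNA15, gave 4.67, 4.79 and 4.49 CPM untreated and 3.47, 1.75 and 1.88 CPM treated in EV. WT libraries gave 5.79, 5.50 and 6.38 and then 2.783, 3.999 and 4.303 CPM, and MUT libraries 6.02, 2.83 and 5.37 and then 2.15, 1.96 and 2.00 CPM. It had no overlap between treated and untreated libraries of a line. The log2 fold changes were at -0.97 in EV, -0.67 in WT and -1.22 in MUT, with edgeR adjusted p of 0.00546, 0.0333 and 6.85e-04. The SNHG21 call in WT was lost for 5 of the 18 libraries left out in turn, with -0.50 (edgeR adjusted p 0.156) without treated WT replicate 1.

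SNHG17, which holds SNORA71A to SNORA71D, gave 17.4, 17.4 and 18.2 CPM untreated and 10.5, 5.31 and 10.7 CPM treated in EV. In WT these were 23.3, 25.1 and 20.5 and then 11.8, 13.4 and 12.04 CPM, and in MUT 23.6, 15.03 and 27.3 and then 10.6, 12.1 and 10.9 CPM. Treated libraries lay below untreated ones in each line. SNHG17 had changes at -0.98 in EV, -0.89 in WT and -0.98 in MUT, with edgeR adjusted p of 5.42e-04, 8.76e-04 and 3.14e-04.

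SNHG7, host of SNORA17A and SNORA17B, gave 46.3, 44.5 and 46.6 CPM untreated and 33.8, 18.7 and 27.3 CPM treated in EV. For WT the values were 48.3, 54.4 and 50.7 and then 19.2, 19.9 and 24.1 CPM, and for MUT 70.4, 34.7 and 64.3 and then 34.2, 29.02 and 35.6 CPM. Its groups overlapped in MUT, through untreated replicate 2, and not in EV or WT. SNHG7 had changes at -0.78 in EV, -1.28 in WT and -0.78 in MUT, with edgeR adjusted p of 0.00332, 3.35e-05 and 0.00221.

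SNHG10, host of SCARNA13, gave 15.7, 14.7 and 13.1 CPM in untreated EV and 7.58, 6.55 and 8.13 CPM in treated EV. In WT it had 18.7, 22.3 and 17.4 and then 12.3, 12.5 and 10.6 CPM, and in MUT 16.5, 12.2 and 17.7 and then 6.59, 6.56 and 9.15 CPM. Treated libraries were below untreated ones in each line. Its log2 fold changes were -0.96 in EV, -0.72 in WT and -1.06 in MUT, with edgeR adjusted p of 4.84e-05, 4.69e-04 and 9.84e-06. ZFAS1, which holds the SNORD12 family and lies antisense to the start of ZNFX1, gave 81.4, 89.9 and 83.3 CPM in untreated EV and 64.8, 45.4 and 53.3 CPM in treated EV. In WT ZFAS1 had 88.3, 95.1 and 81.01 and then 47.04, 45.7 and 49.8 CPM, and in MUT 123, 78.4 and 122 and then 64.99, 53.7 and 57.00 CPM, with no overlap in any line. The changes of ZFAS1 were -0.64 in EV, -0.89 in WT and -0.88 in MUT, with edgeR adjusted p of 8.94e-04, 3.11e-05 and 2.31e-05.

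SNHG5, host of SNORD50A and SNORD50B, changed by -0.72 in EV, -0.87 in WT and -0.81 in MUT, with edgeR adjusted p of 0.00837, 0.00197 and 0.00264. SNHG16, the host of the SNORD1 family and the most abundant member in CPM in untreated EV (260.1, 247 and 239.6 CPM), fell to 138, 155 and 163 CPM, and its changes were -0.71 in EV, -0.63 in WT and -0.69 in MUT (edgeR adjusted p 5.18e-04, 0.00152 and 5.45e-04). EPB41L4A-AS1, SNHG8 and SNHG20 were also called lower in each line, less firmly. EPB41L4A-AS1 was at -0.68 in EV, -0.99 in WT and -0.62 in MUT (edgeR adjusted p 0.00997, 4.68e-04 and 0.0111), and its MUT call was lost without untreated MUT replicate 1, untreated MUT replicate 3 or treated MUT replicate 1, with -0.50 (edgeR adjusted p 0.0647) for the first. SNHG8 was at -0.49 in EV, -0.81 in WT and -0.81 in MUT (edgeR adjusted p 0.043, 0.00155 and 0.0012), and its EV call was lost for 10 of the 18 libraries left out in turn, with -0.31 (edgeR adjusted p 0.205) without treated EV replicate 2. SNHG20 was at -0.44 in EV, -0.67 in WT and -0.58 in MUT (edgeR adjusted p 0.0195, 7.61e-04 and 0.00232), and its EV call was lost for 3 of the 18, with -0.30 (edgeR adjusted p 0.108) without that library.

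Hosts were also grouped by the class of snoRNA they hold. Of 10 tested hosts with H/ACA snoRNAs and no named C/D ones, 8 were lower in all 3 lines. Of 9 with C/D snoRNAs and no named H/ACA ones, 4 were lower in all 3 and 2, SNHG14 and SNHG18, were higher. All 3 tested hosts of a scaRNA alone, SNHG10, SNHG20 and SNHG21, were lower in all 3. These counts stand beside 16.4% of all tested genes called lower in all 3 lines and 18.9% called higher. The difference between the classes was not tested.

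SNHG18, host of SNORD123 on chromosome 5, and SNHG14 were the members that rose in every line. SNHG18 gave 4.38, 3.80 and 4.12 CPM in untreated EV and 10.5, 7.62 and 9.07 CPM in treated EV. In WT it gave 1.37, 1.96 and 1.04 CPM untreated and 3.20, 2.81 and 3.48 CPM treated. Libraries of MUT held 2.56, 3.40 and 3.03 CPM untreated and 7.60, 5.98 and 8.11 CPM treated. Every treated library exceeded every untreated one of its line, and every treated WT library lay below every untreated EV library. Its log2 fold changes were 1.15 in EV, 1.11 in WT and 1.28 in MUT (SE 0.188, 0.218 and 0.193), with edgeR adjusted p of 4.73e-05, 2.99e-04 and 1.48e-05.

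SNHG14 is the long imprinted transcript that holds the SNORD115 and SNORD116 clusters and runs antisense to UBE3A, which encodes a ubiquitin ligase. It gave 32.01, 33.6 and 31.05 CPM in untreated EV and 47.2, 44.6 and 50.9 CPM in treated EV. WT libraries gave 35.2, 40.3 and 31.9 CPM untreated and 52.6, 52.9 and 53.3 CPM treated. In MUT it gave 25.5, 18.1 and 17.02 CPM untreated and 35.99, 39.4 and 43.7 CPM treated. Groups did not overlap in any line. On the log2 scale the changes were 0.56 in EV, 0.56 in WT and 0.97 in MUT (SE 0.117, 0.115 and 0.12), with edgeR adjusted p of 5.02e-04, 4.29e-04 and 1.34e-06. SNRPN, on the same strand and overlapping it, rose by 0.56 in EV, 0.50 in WT and 0.43 in MUT, with edgeR adjusted p of 1.18e-05, 3.85e-05 and 1.67e-04. UBE3A on the other strand changed by -0.45 in EV, -0.38 in WT and -0.40 in MUT, with edgeR adjusted p of 1.63e-04, 7.45e-04 and 3.62e-04. How the counting divided overlapping reads is not given in the sources used here.

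NEAT1, the scaffold of paraspeckles, did not pass the threshold in any line. It gave 98.1, 109.8 and 107 CPM in untreated EV and 138, 87.5 and 134 CPM in treated EV. The WT values were 156, 162 and 125 CPM untreated and 111, 109 and 98.7 CPM treated, which did not overlap. MUT libraries gave 109, 42.7 and 75.1 CPM untreated and 74.5, 103 and 96.9 CPM treated. The treated values lay inside the untreated range in MUT and on both sides of it in EV. The fitted log2 changes were 0.19 in EV, -0.48 in WT and 0.27 in MUT (SE 0.221, 0.22 and 0.222), with edgeR adjusted p of 0.504, 0.0806 and 0.309. Without untreated MUT replicate 1 the WT and MUT changes of NEAT1 passed in opposite directions, at -0.48 (SE 0.178, edgeR adjusted p 0.0351) and 0.63 (SE 0.208, edgeR adjusted p 0.016).

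MALAT1, the abundant RNA of nuclear speckles, passed only in WT among the 3 lines. Libraries of WT held 206, 148 and 131 CPM untreated and 105, 115 and 90.4 CPM treated, without overlap. In EV it gave 101, 103 and 100.3 CPM untreated and 104, 80.4 and 102 CPM treated. The MUT values were 108, 74.3 and 78.6 CPM untreated and 79.1, 121 and 93.04 CPM treated. EV and MUT groups overlapped. The log2 fold changes were -0.09 in EV, -0.64 in WT and 0.16 in MUT (SE 0.17, 0.169 and 0.17), with edgeR adjusted p of 0.711, 0.00373 and 0.426. TUG1, a broadly expressed long noncoding RNA, passed in MUT only, at 0.36 (SE 0.121) (edgeR adjusted p 0.0164), with 159, 176 and 106 CPM untreated and 186, 195 and 185 CPM treated. The lowest of these was untreated replicate 3, and without it the TUG1 change in MUT was 0.14 (SE 0.0739, edgeR adjusted p 0.113), no longer past the threshold. The TUG1 call was also lost without treated MUT replicate 2, at 0.34 (edgeR adjusted p 0.0503). In EV it gave 193, 205 and 212 CPM untreated and 197, 237 and 216 CPM treated, and in WT 223, 199.8 and 196 CPM untreated and 200.4, 209 and 201 CPM treated.

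PVT1, which lies beside MYC on chromosome 8 and is known as a transcript induced by p53, was lower in all 3 lines. It gave 26.6, 24.9 and 24.8 CPM in untreated EV and 22.2, 12.8 and 15.5 CPM in treated EV. In WT it gave 27.1, 28.4 and 26.7 CPM untreated and 18.7, 20.6 and 19.7 CPM treated, and in MUT 25.98, 21.1 and 19.1 CPM untreated and 15.4, 18.96 and 16.6 CPM treated. Groups did not overlap in EV, WT or MUT. The log2 fold changes of PVT1 were -0.59 in EV, -0.48 in WT and -0.38 in MUT (SE 0.146, 0.144 and 0.146), with edgeR adjusted p of 0.00241, 0.00964 and 0.0331. Its call in MUT was lost without untreated MUT replicate 1, at -0.24 (edgeR adjusted p 0.197), without treated MUT replicate 1, at -0.31 (edgeR adjusted p 0.12), and without treated MUT replicate 3, at -0.36 (edgeR adjusted p 0.0817). MYC itself was lower, with log2 fold changes at -1.10 in EV, -1.13 in WT and -1.01 in MUT and edgeR adjusted p of 7.33e-09, 4.78e-09 and 1.22e-08.

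The microRNA hosts did not pass in any line. MIR17HG was near the limit of these depths, with 0.584, 0.351 and 0.922 CPM in untreated EV and 0.880, 0.312 and 0.428 CPM in treated EV. Its log2 fold changes were -0.17 in EV, 0.09 in WT and -0.19 in MUT with standard errors of 0.495, 0.515 and 0.508, and the 95% interval in EV was -1.14 to 0.80. MIR22HG gave 8.70, 11.3 and 11.6 CPM in untreated EV and 9.88, 6.31 and 10.5 CPM in treated EV. Libraries of MUT held 11.03, 3.77 and 9.14 CPM untreated and 4.79, 9.15 and 8.11 CPM treated, and its log2 fold changes were -0.23 in EV, -0.09 in WT and -0.14 in MUT. SNHG25 also passed in no line, at 1.20 CPM or less in every library.

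The remaining members passed in some lines. CRNDE fell in WT and MUT, at -0.68 (SE 0.167) and -0.68 (SE 0.164), and was at -0.20 (SE 0.165) in EV. SNHG6, SNHG9 and SNHG19 likewise passed in WT and MUT and not in EV. SNHG6 gave 119, 109.5 and 108 CPM in untreated and 84.6, 85.98 and 92.1 CPM in treated WT, and 104, 79.5 and 87.97 CPM in treated EV and 105, 97.8 and 104 CPM in treated MUT. SNHG6 had log2 fold changes at -0.20 in EV, -0.36 in WT and -0.62 in MUT and SNHG19 at -0.48 in EV, -1.06 in WT and -0.85 in MUT. SNHG9 stood at 0.46 in EV, -1.45 in WT and -1.44 in MUT, and its treated EV libraries gave 3.42, 0.749 and 1.03 CPM, with replicate 1 apart from the others. SNHG26 passed in WT at -0.70 and SNHG11 in MUT at -0.50. These calls depended on single libraries. Left out in turn, 4 of the 18 ended the call of SNHG26, 4 that of SNHG11, and 3 in WT and 2 in MUT that of SNHG9. SNHG11 was at -0.29 (edgeR adjusted p 0.222) without untreated MUT replicate 3.

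**Figure D4:**
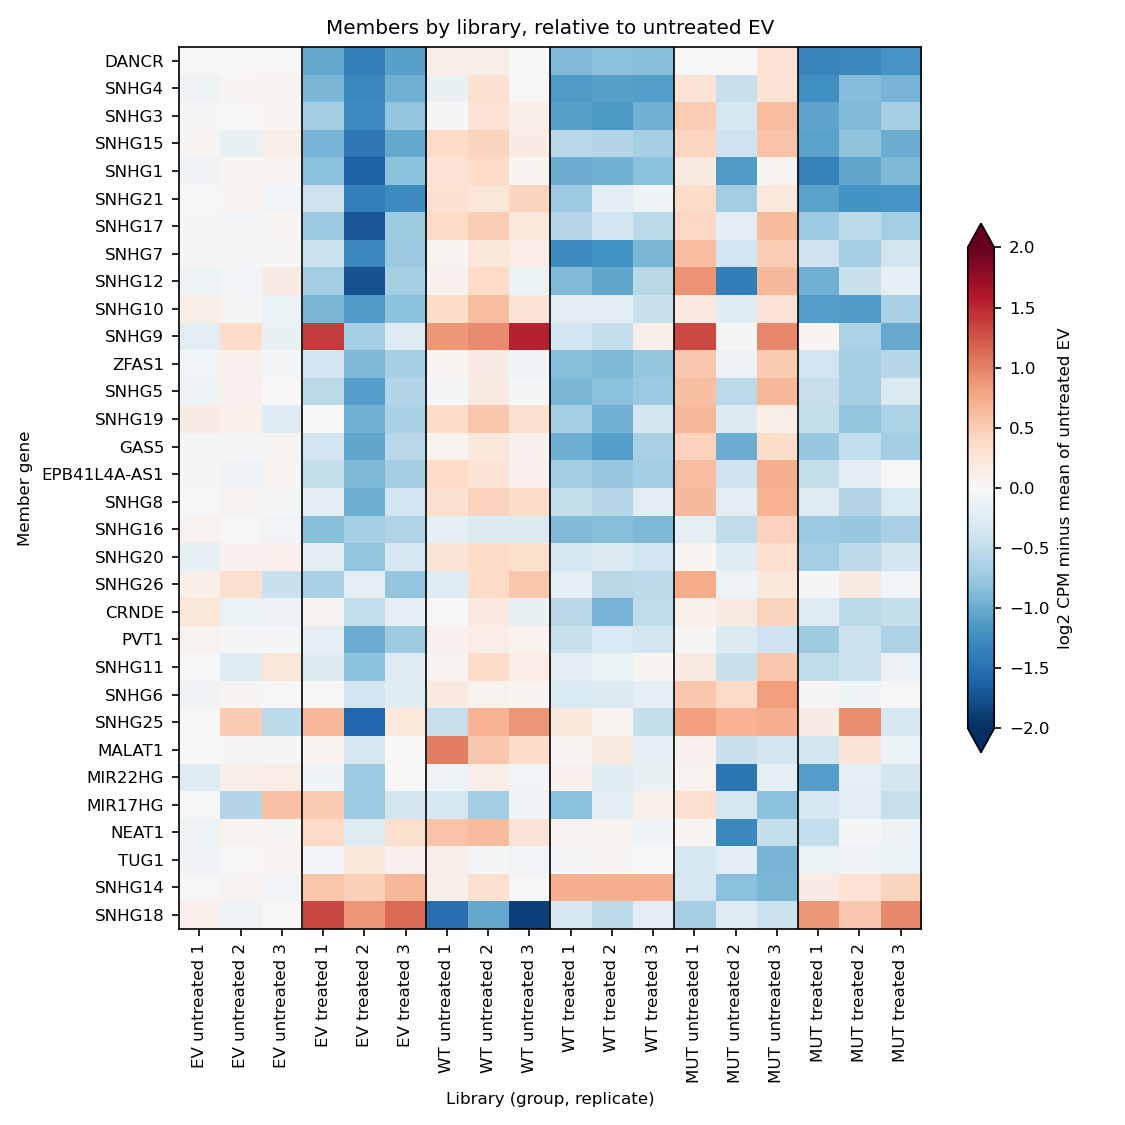
Log2 CPM of the 32 tested members in all 18 libraries minus the mean of untreated EV, with members in order of their mean response and the colour scale ending at -2 and 2. The treated blocks of each line are blue for most hosts and red for SNHG14, and untreated MUT replicate 2 is paler or bluer than its neighbours in most rows.

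Whether the lines responded differently was tested directly as the difference between their cytarabine effects. No member passed in any of the 3 differences in edgeR after Benjamini-Hochberg adjustment, while 0.214% of all tested genes did so between MUT and EV, 1% between MUT and WT, and 0.285% between WT and EV. In the same order 3, 5 and 3 members had an unadjusted p under 0.05 in edgeR. Among the 18226 tested genes 2882, 2810 and 1815 did. The DESeq2 Wald test called 0, 2 and 0 members, against 2.06%, 3.87% and 0.713% of all tested genes. The 2 called by DESeq2 were DANCR and MALAT1 for MUT against WT. For DANCR the MUT effect minus the WT effect was -0.43 (SE 0.121) (95% interval -0.67 to -0.19, edgeR adjusted p 0.0902). For MALAT1 it was 0.81 (SE 0.24) (95% interval 0.34 to 1.28, edgeR adjusted p 0.108). For GAS5 the MUT effect minus the EV effect was -0.10 (SE 0.336), with a 95% interval of -0.76 to 0.56. Within MUT against EV the SNHG9 difference was the largest in size at -1.90 (SE 0.677), and it did not pass (edgeR adjusted p 0.191). The largest member difference for WT against EV was -1.91.

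These counts depended on which untreated MUT libraries were in the fit. Without replicate 1 of untreated MUT, 4 members passed for MUT against WT, where 4.34% of all tested genes did, in place of 1% with all libraries. They were MALAT1 at 0.99 (SE 0.237, edgeR adjusted p 0.0256), NEAT1 at 1.11 (SE 0.274, edgeR adjusted p 0.0289), SNHG14 at 0.61 (SE 0.135, edgeR adjusted p 0.0178) and DANCR at -0.48 (SE 0.124, edgeR adjusted p 0.0341). SNHG14 then also passed for MUT against EV, where 3.57% of all tested genes did. Without replicate 2 of untreated MUT, DANCR passed for MUT against WT at -0.51 (SE 0.125, edgeR adjusted p 0.0305) and SNHG6 for MUT against EV at -0.55 (SE 0.135, edgeR adjusted p 0.0476), where 3.61% and 1.8% of all tested genes did. Without replicate 3 no member passed, against 1.8% of all tested genes for MUT against WT and 0.541% for MUT against EV. With all libraries these shares were 1% and 0.214%. The calls over all genes thus rose in each of these fits, also where no member passed.

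The lines were next compared within a treatment, to ask how the members' levels differed with the introduced DNMT3A. Comparisons that use the same line share its libraries. Untreated MUT against untreated EV gave 3 members called, where 19.9% of all tested genes were, 9.88% higher and 10% lower. SNHG6 was higher at 0.60 (SE 0.1) (edgeR adjusted p 3.94e-04), with 151, 136 and 186 CPM in MUT and 99.8, 108 and 105 CPM in EV. SNHG14 was lower at -0.67 (SE 0.122) (edgeR adjusted p 7.82e-04). TUG1 was lower at -0.47 (SE 0.121) (edgeR adjusted p 0.0101), with 159, 176 and 106 CPM in MUT and 193, 205 and 212 CPM in EV. Its change ran from -0.59 to -0.26 over the alternative runs. The TUG1 call was lost in a fit of only these 2 groups (edgeR adjusted p 0.13). Groups did not overlap for these 3 genes.

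This count moved with replicate 2 of untreated MUT. That library was singled out because its hosts were low, so leaving it out raises the hosts in MUT by construction. Without replicate 2, 13 members were called, where 23.5% of all tested genes were (13.1% higher). Of the 13, 11 were higher in MUT, namely EPB41L4A-AS1, GAS5, SNHG3, SNHG5, SNHG6, SNHG7, SNHG8, SNHG12, SNHG15, SNHG17 and ZFAS1. SNHG3 was then at 0.59 (SE 0.125, edgeR adjusted p 0.00198), SNHG12 at 0.81 (SE 0.225, edgeR adjusted p 0.0127) and GAS5 at 0.44 (SE 0.137, edgeR adjusted p 0.0244). Without replicate 1 instead, only SNHG6 was called higher and 3 members lower, where 20.6% of all tested genes were called. Without replicate 3 these counts were the same, where 20.4% were called. With all libraries in the fit, 15 of 29 protein-coding snoRNA hosts were called higher in untreated MUT than in untreated EV and none lower. In that fit 9.88% of all tested genes were called higher and 10% lower. Untreated MUT against untreated WT gave 6 members called (21.2% of all tested genes, 11.7% higher and 9.54% lower) and 13 without replicate 2 (24.3% of all tested genes, 15.4% higher and 8.97% lower), of which 9 were higher and 4 lower. Without replicate 1 instead, 2 were higher and 5 lower (22.4% of all tested genes). Without replicate 3, 2 were higher and 4 lower (21.6%). With all libraries SNHG18 and SNHG6 were higher in MUT than in WT, at 1.03 and 0.49. NEAT1, MALAT1, SNHG14 and TUG1 were lower, at -0.96 (SE 0.223), -0.89 (SE 0.171), -0.82 (SE 0.121) and -0.49 (SE 0.121). In a fit of only untreated MUT and WT the calls of NEAT1, SNHG18 and TUG1 were lost (edgeR adjusted p 0.0743, 0.0713 and 0.116). Without replicate 2, NEAT1 was at -0.65 (SE 0.173, edgeR adjusted p 0.00941).

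Untreated WT against untreated EV gave 2 members called, against 11.7% of all tested genes. MALAT1 was higher in WT at 0.67 (SE 0.17) (edgeR adjusted p 0.0128). SNHG18 was lower in WT at -1.49 (SE 0.217) (edgeR adjusted p 1.06e-04). In 16 members every untreated WT library lay above every untreated EV library, against 18.7% of all tested genes. A fit of only these 2 groups, whose replicates were close, called 15 members, 13 higher and 2 lower, and 31.5% of its tested genes, 15% higher and 16.5% lower. The MALAT1 call was lost without untreated WT replicate 1, at 0.46 (edgeR adjusted p 0.109).

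**Figure D5:**
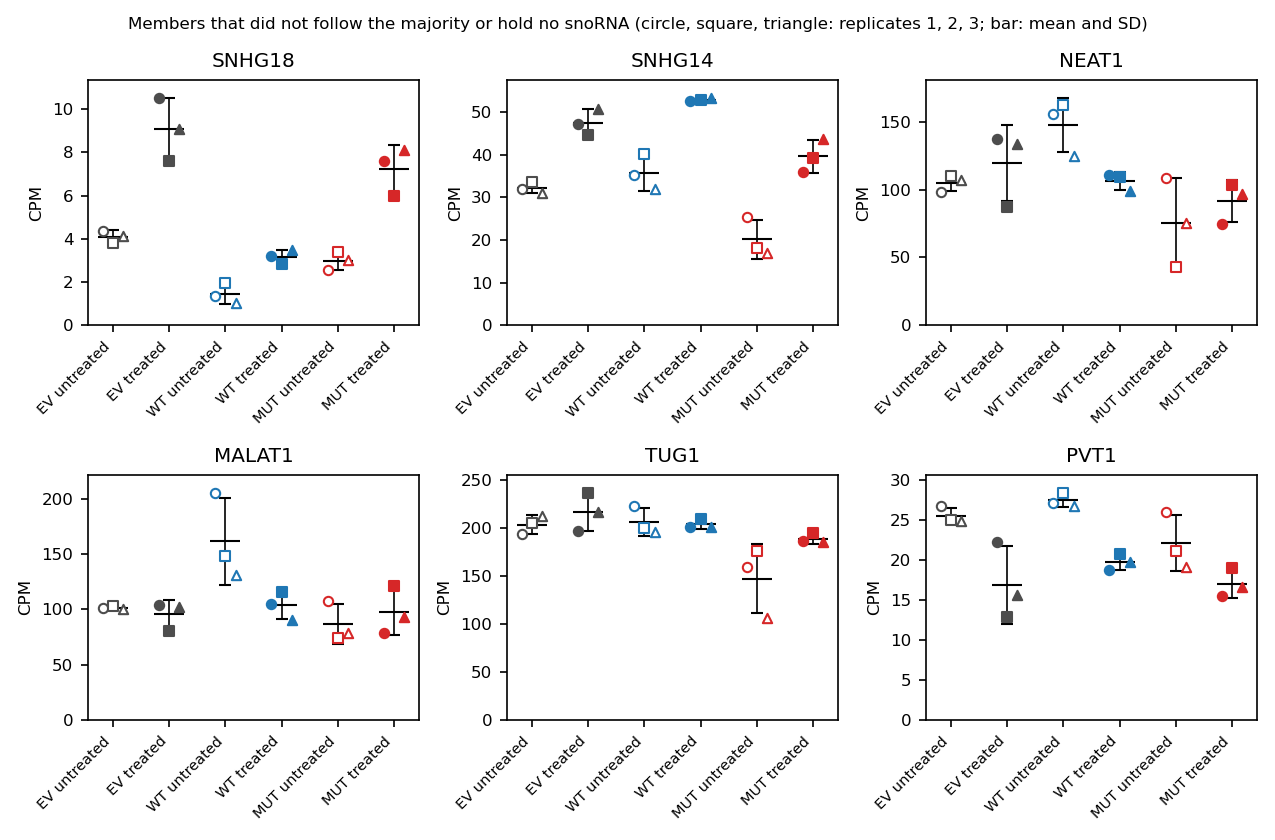
CPM in every library, with group means and SD, of SNHG18 and SNHG14, which rose, and of 4 members without a snoRNA gene (open untreated, filled treated, grey EV, blue WT, red MUT). SNHG18 is lowest in WT with and without treatment, and the untreated MUT libraries of NEAT1 run from 42.7 to 109 CPM.

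After treatment no member passed between MUT and EV in edgeR, against 14% of all tested genes called. An unadjusted p under 0.05 in edgeR was found for 3 members, against 4949 of the 18226 tested genes. DESeq2 called 0 members, against 15.4% of all tested genes. Treated WT against treated EV gave 3 members called (16.5% of all tested genes). DANCR and SNHG10 were higher in WT at 0.30 (SE 0.0863) and 0.66 (SE 0.157), and SNHG18 was lower at -1.52 (SE 0.189), with edgeR adjusted p of 0.0229, 0.00653 and 1.66e-05. Treated MUT against treated WT gave 6 members called (19.8% of all tested genes). SNHG18 and SNHG7 were higher in MUT at 1.19 and 0.64, while DANCR, SNHG10, SNHG14 and SNHG21 were lower at -0.41, -0.66, -0.42 and -0.85. Treated EV gave 7.58, 6.55 and 8.13 CPM of SNHG10, treated WT 12.3, 12.5 and 10.6 CPM and treated MUT 6.59, 6.56 and 9.15 CPM. SNHG10 in WT lay above the other lines without overlap. A fit of treated MUT and WT alone called 13 members and 35.5% of its tested genes. Leaving out 1 library at a time, DANCR between treated WT and EV lost its call for 4 of the 18 libraries, and between treated MUT and WT SNHG21 did for 5, SNHG7 for 4 and SNHG14 for 1. DANCR was at 0.21 (edgeR adjusted p 0.115) without treated EV replicate 2.

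The summed level of the 25 tested noncoding hosts was 1251 ± 11.8 CPM (SD, n = 3) in untreated EV and 770.1 ± 104 CPM in treated EV. It was 1334 ± 71.5 CPM in untreated WT and 769 ± 27.5 CPM in treated WT. In MUT it was 1408 ± 344 CPM untreated and 789 ± 40.9 CPM treated. The untreated means lay apart by less than the spread of untreated MUT, whose libraries ran from 1025 to 1691 CPM. Without replicate 2 of treated EV, 17 members were called in EV, 2 higher and 15 lower, where 44.8% of all tested genes were called. In MUT, leaving out untreated replicate 2 gave 3 members higher and 23 lower and a median log2 fold change of -1.004 over the tested members (27.1% of all tested genes lower). Leaving out untreated replicate 1 gave 4 higher and 17 lower and a median of -0.59 (24.5% lower). Leaving out untreated replicate 3 gave 2 higher and 20 lower and a median of -0.60 (27.4% lower).

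Genes that act with the hosts were taken from written lists. The lists were chosen with earlier results of these data known, so their counts describe these genes and are not independent support. Of 19 proteins that bind, modify or assemble snoRNA particles, 16 fell in EV, 14 in WT and 17 in MUT, and none rose, where 22.9%, 22.7% and 25.9% of all tested genes were called lower. NOP58, a core protein of box C/D particles, changed by -1.05 in EV, -0.92 in WT and -1.28 in MUT, DKC1, the pseudouridine synthase of H/ACA particles, by -1.02 in EV, -1.01 in WT and -1.13 in MUT, and GAR1 by -1.03 in EV, -0.83 in WT and -1.02 in MUT. The list median was -0.64 in EV, -0.57 in WT and -0.76 in MUT. Of 29 protein-coding snoRNA hosts 27 fell in EV, 27 in WT and 28 in MUT and none rose, with medians of -0.44, -0.50 and -0.67, beside the same shares of all tested genes. PPAN changed by -1.21 in EV, -1.06 in WT and -1.45 in MUT and NCL, which encodes nucleolin, by -1.01 in EV, -1.01 in WT and -1.18 in MUT. Read against the same 22.9%, 22.7% and 25.9%, of 15 nonsense-mediated decay factors 12 fell in EV, 10 in WT and 11 in MUT, and XRN1, a 5′ to 3′ exonuclease, rose in MUT at 0.41. UPF1, the central helicase of that decay, changed by -0.43 in EV, -0.33 in WT and -0.31 in MUT. All 10 paraspeckle proteins listed fell in each line, to be read against these shares too, while their RNA scaffold NEAT1 did not pass, with RBM14 at -1.19 in EV, -1.05 in WT and -1.04 in MUT and SFPQ at -0.89 in EV, -0.89 in WT and -0.80 in MUT.

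Of the tested members 14 overlap a protein-coding gene of the table, and 18 do not. Of the former 11 were lower in all 3 lines, and of the latter 7 were, against 16.4% of all tested genes. The partners named next were found by position and chosen after their values were seen, and they did not always move with the member. EPB41L4A, antisense to EPB41L4A-AS1, rose by 1.66 in EV, 1.27 in WT and 1.52 in MUT. DIPK1B, antisense to SNHG7, changed by 1.10 in EV, 0.70 in WT and 0.82 in MUT (edgeR adjusted p 1.30e-08, 3.25e-06 and 3.54e-07), opposite in sign to SNHG7. GLRX5, antisense to SNHG10, was lower, like SNHG10, with log2 fold changes at -0.43 in EV, -0.53 in WT and -0.75 in MUT. The library kit named in the labels is not the directional version as written, and the strand setting of the counting is not given in the sources used here, so reads of overlapping opposite-strand genes may not be told apart.

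Across the 32 tested members Pearson's r of the log2 fold changes was 0.698 between EV and WT, 0.779 between EV and MUT and 0.869 between WT and MUT. These are descriptions across genes that share libraries, not tests.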

How the data were processed

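RNA sequencing was done on 18 libraries, 3 biological replicates in each of 6 groups. Reads were aligned to hg38 with STAR 2.6.1d after CASAVA, per the submitters' processing notes, and the counting tool, annotation and use of strand are not given in the sources used here. The authors deposited estimated counts per gene (70.4% whole), which were rounded here, and a normalized signal for 19591 genes, which the authors scaled by 1 factor per library and which served here only for an alternative scaling.

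Genes passed filterByExpr, libraries were scaled by TMM, and 1 edgeR 4.0.16 quasi-likelihood fit in R 4.3.3 covered all 6 groups. Each of 12 comparisons was adjusted by Benjamini-Hochberg over 18226 genes at 0.05. Standard errors are the absolute log2 fold change over the square root of F, and 95% intervals use the normal quantile. The biological coefficient of variation common to all genes was 0.104. The CPM of low members carry counting error as well as spread between cultures. On simulated counts the fit called more unchanged genes than its threshold allows, so calls near the threshold are less sure than their adjusted p states.

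Alternatives were other scalings, DESeq2 1.42.0, other filters, fits of only the groups compared, a replicate block and leaving out each library. Exonic lengths came from GENCODE, and snoRNA positions and promoters from RefSeq. Per-library values are given for the 12 members with the largest mean change among those called in 1 direction in all 3 lines, for those called between lines, and for GAS5, SNHG1, NEAT1, MALAT1, PVT1, MIR17HG and MIR22HG; some further values were chosen after they were seen. Members and lists were chosen with earlier results of these data known. Replicate pairs differed by more than sampling noise, so all libraries were kept.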

Additional observations from a re-analysis of the deposited data

How the results depend on the processing

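No member called in a comparison reversed under any alternative run. Of 92 calls of single members 68 held under every alternative and 24 lost the threshold in at least 1, and of the 72 cytarabine calls 57 held under every alternative. Upper-quartile scaling ended cytarabine calls of GAS5, SNHG8, SNHG12 and SNHG20 in EV, SNHG12, SNHG21 and SNHG26 in WT, and PVT1, SNHG11 and SNHG12 in MUT. With it the members' median log2 fold changes were -0.51 in EV, -0.67 in WT and -0.67 in MUT. All tested genes then had medians of 0.13, 0.07 and 0.10. DESeq2 called 2 members for the MUT against WT difference in effect (3.87% of all tested genes), where edgeR called 0 (1% of all tested genes). In fits of only the groups compared, the counts were 15 for untreated WT against EV, 3 for untreated MUT against WT and 13 for treated MUT against WT, in place of 2, 6 and 6, with 31.5%, 7.16% and 35.5% of all genes tested called in place of 11.7%, 21.2% and 19.8%; such fits do not share the spread of the other groups. Leaving out 1 library gave 16 to 22 members called for cytarabine in EV, 22 to 27 in WT and 21 to 26 in MUT, where 41.8 to 52.5%, 41.6 to 53% and 49.5 to 56.7% of all tested genes were called. The differences in effect gave 0 to 1 for MUT against EV, 0 to 4 for MUT against WT and 0 to 0 for WT against EV (0.0427 to 3.57%, 0.203 to 4.34% and 0.0642 to 0.792% of all tested genes). Untreated comparisons gave 3 to 13 for MUT against EV, 1 to 4 for WT against EV and 6 to 13 for MUT against WT (12 to 23.5%, 7.39 to 15.9% and 14.9 to 24.3% of all tested genes), and treated ones gave 0 to 1, 2 to 5 and 3 to 10 (8.25 to 19.8%, 9.5 to 21.9% and 12.4 to 26%). With the replicate block 22, 26 and 25 members were called for cytarabine in EV, WT and MUT, against 49.3%, 49% and 56.3% of all tested genes. The block changed the count of no other comparison of members. Replicate numbers were not treated as pairs, since in no comparison did every same-numbered pair deviate together beyond a correlation of 0.1. Single pairs did. Treated MUT against EV gave 0.272, -0.0259 and 0.305 for replicates 1, 2 and 3, and the cytarabine effect in MUT gave -0.036, 0.0619 and 0.326. A shared batch of some replicates is therefore not excluded. Levels in untreated EV per median transcript length, a length chosen after seeing the data, were 241, 101, 110.4, 44.6 and 201 CPM per kb for DANCR, SNHG16, SNHG19, SNHG3 and SNHG6. With library totals in place of TMM they were 21.5 CPM per kb for DANCR, 40.6 for SNHG16, 81.0 for SNHG19, 22.6 for SNHG3 and 38.9 for SNHG6 per exonic length. Depth limits MIR17HG, SNHG25 and SNHG9, which held few counts.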
